A study of Mus musculus with 9 samples.

Results

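Mouse fat cells differentiated with 100 µM sodium alginate were compared with the same kind of cells differentiated with 50 µM, the step between the higher and the lower dose of the series. The libraries were chosen by the dose in the treatment label, 3 at 100 µM and 3 at 50 µM, which is 6 of the 9 libraries of the series. The 3 libraries at 0 µM entered the estimate of the spread, and their levels are given for some of the genes named. Of 41761 genes in the deposited table, 12635 reached 1 FPKM in 3 or more of the 9 libraries, and these were tested. FPKM counts the fragments of a gene relative to its length in kilobases and to the sequencing depth.

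Stromal vascular cells, the mixed cells that remain when fat cells are removed from fat tissue, came from inguinal white fat of wild type C57 mice (C57BL/6J in the study's design text). At confluence they were induced at every dose with insulin (1 µg/ml), dexamethasone (1 µM), isobutylmethylxanthine (0.5 mM) and rosiglitazone (1 µM), a PPAR gamma agonist, and after 48 h they were kept in insulin and rosiglitazone. The design text does not list rosiglitazone. Sodium alginate, the salt of a polysaccharide from brown algae, was present throughout at 0, 50 or 100 µM. Titles name day 6, whereas cells were collected on day 7 by the protocol. For the libraries used here as 100 µM, the title reads 50 µM but both the treatment label and the library name read 100 µM, and these were followed. Total RNA was sequenced from paired ends. Whether the 3 libraries of each dose are from different cultures or mice is not labelled, so the p-values cover only the scatter from library to library, possibly a technical one.

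White adipocytes form from fibroblast-like progenitors when the nuclear receptor PPAR gamma and the transcription factor C/EBP alpha turn on the genes of lipid storage. Mature cells take up or make fatty acids, join them to glycerol as triglyceride, coat the droplet with perilipins and release the fat by lipolysis. Their progenitors make collagen-rich matrix, carry actin stress fibres and can divide, and these programmes usually decline as fat accumulates.

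The labelled cell type, mature white adipocyte, was checked against 30 adipocyte markers, of which 28 reached the expression threshold. Adiponectin (Adipoq) averaged 656 FPKM at 50 µM and 956 at 100 µM, and the fatty acid binding protein Fabp4 averaged 2790 and 3633. The length given for Fabp4 in the table is the whole span of the gene, which lowers its FPKM relative to other genes. Leptin (Lep) was listed at 0 in all 3 libraries at 50 µM and averaged 0.0192 FPKM at 100 µM. Pck1, which feeds glycerol synthesis, averaged 0.457 and 1.11 FPKM and fell just short of the threshold. Stromal genes were present at both doses, with the progenitor receptor Pdgfra at 40.3 and 32.3 FPKM and the collagen chain Col1a1 at 693 and 647. In bulk RNA such as this, fewer cells of a type and less RNA per cell cannot be told apart.

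Whole reads could be rebuilt from the FPKM values, and their totals were 15359348 to 16523540 per library at 50 µM and, at 100 µM, 14019672 to 17094467. In each library the top 10 genes held a share of reads that was 7.216% to 7.499% at 50 µM and 8.583% to 8.661% at 100 µM. Over these 6 libraries component 1 of a principal component analysis took up 41.4% of the variance and separated the doses, from -18.6 to -11.2 at 50 µM and from 12.4 to 15.9 at 100 µM. On component 2, with 16.9%, library 3 at 50 µM lay at -14.5 against 8.56 and 9 for the others at that dose. The chi-square per gene between libraries of 1 dose was 3.35 to 6.77, above the counting noise, and each library was treated as its own sample.

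Between 50 and 100 µM, 1663 genes rose and 1510 fell at a Benjamini-Hochberg adjusted p below 0.05 in limma. Those called were 25.1% of the genes tested, with 13.2% higher at 100 µM and 12% lower, and these shares are the background against which the gene groups below are read. In 40.4% of the genes tested the 3 values at 100 µM did not overlap the 3 at 50 µM. The changes were modest. On the scale of log2(FPKM + 1), which understates changes of genes with low values, the median change was 0.32 for called increases and -0.34 for called decreases. Only 129 increases and 172 decreases reached 1.5-fold, and 15 and 21 reached 2-fold. Direction followed expression level. Among the 526 genes at 100 FPKM or more, 210 rose and 69 fell, whereas among the 5037 genes under 5 FPKM, 202 rose and 484 fell. The split between directions also depended on the scale of the values. The deposited values carry a factor per library that raises them at 100 µM, as the ratio of scaling total to reads was 1.019 to 1.023 at 50 µM and 0.9692 to 0.9757 at 100 µM. Without that factor 1102 genes rose and 2180 fell, and the median of all genes moved from 0.0066 to -0.0521. On the TPM scale the counts were 1050 and 2040, and with voom on the rebuilt reads 1232 and 2508. Increases were 52.4% of the calls on the deposited scale and 34%, 33.6% and 32.9% on the TPM scale, without the factor and with voom.

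**Figure D1:**
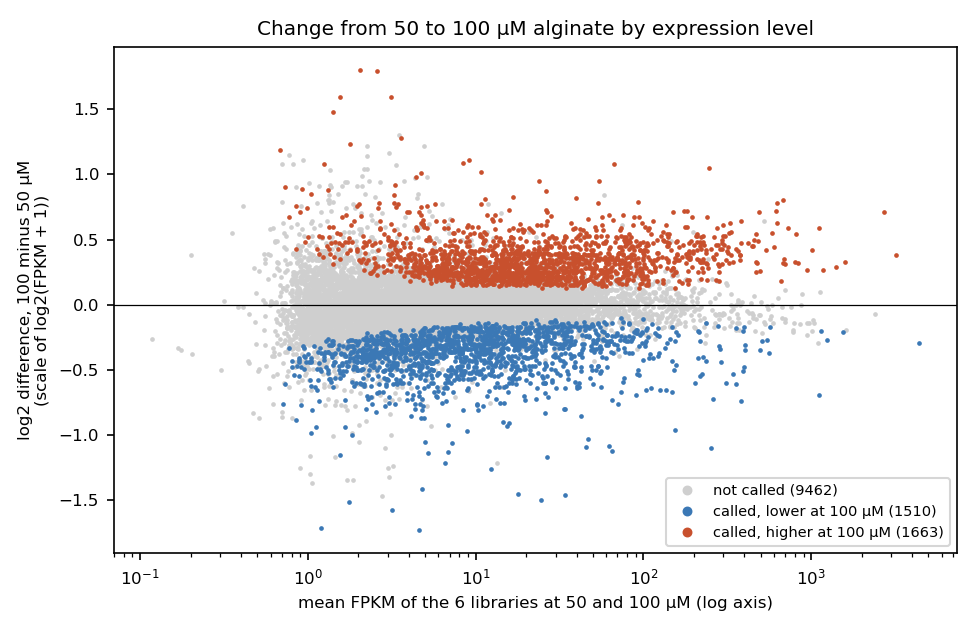
Each point is 1 of the 12635 genes tested, placed by its mean FPKM over the 6 libraries (log axis) and by its log2 difference between 100 and 50 µM; colour marks the call. Called increases outnumber decreases at high expression, with 210 increases against 69 decreases at 100 FPKM or more. Under 5 FPKM the decreases are more, with 484 against 202 increases.

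The 15 largest increases among protein-coding genes were led by Plin5, Cox7a1, Thrsp and Ppara. The largest increases were chosen among called genes whose values did not overlap between the doses, so their tests and separation describe them only. The same holds for the tests, given below, of genes taken from each list by smallest p. Plin5, a perilipin that coats lipid droplets and ties them to mitochondria, lies on chromosome 17 of the C57BL/6NJ assembly, from 60041997 to 60047992. It measured 5.66, 5.76 and 4.82 FPKM in the libraries at 50 µM and 12, 12.7 and 13.7 at 100 µM. Every 100 µM library was far above every 50 µM library, and the log2 difference was 1.11 ± 0.0853 (SE, adjusted p = 0.000194). Cox7a1, a subunit of cytochrome oxidase typical of muscle and brown fat (chromosome 7, 30094237 to 30096094), measured 42.3, 41.2 and 43.2 FPKM at 50 µM and 84.3, 101 and 86.6 at 100 µM. The doses did not overlap, and the log2 difference was 1.08 ± 0.0698 (adjusted p = 0.000194). Thrsp, a protein that promotes fatty acid synthesis, measured 165, 157 and 158 FPKM and then 335, 342 and 319, again without overlap. Its log2 difference was 1.05 ± 0.058 (adjusted p = 0.000194). Ppara, the PPAR that drives genes of fatty acid oxidation, measured 7.9, 7.27 and 5.38 FPKM at 50 µM and 15.2, 13.2 and 15.9 at 100 µM, and the lowest value at 100 µM was well above the highest at 50 µM (log2 difference 1.02 ± 0.15, adjusted p = 0.00146).

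Plin5, Cox7a1 and Ppara had nearly the same level at 0 and 50 µM. Plin5 averaged 5.28 FPKM at 0 µM against 5.41 at 50 µM, Cox7a1 39.7 against 42.2, and Ppara 6.87 against 6.85. Thrsp differed from them in having a lower level at 0 µM, with 111 FPKM against 160.

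The other 11 of the 15 largest increases ranged from 0.77 to 0.98 on the log2 scale. They include Acacb, the acetyl-CoA carboxylase at the mitochondrial surface, which went from 18.2 ± 1.9 to 34 ± 2.56 FPKM (SD, n = 3 per dose). The insulin-responsive glucose transporter Slc2a4 (GLUT4) went from 28.5 ± 2.33 to 50.9 ± 1.63 FPKM. Carbonic anhydrase Car3, an abundant fat cell enzyme, went from 460 ± 33 to 789 ± 44.5, and the peroxisomal enzyme Ehhadh from 39.3 ± 2.99 to 68.1 ± 3.13. The lipase Ces1d went from 67.7 ± 6.65 to 117 ± 0.194 FPKM, although it has close copies between which reads can be split. Fmo1, a flavin-containing monooxygenase, went from 16 to 32 FPKM, and Ppp1r1a, an inhibitor of protein phosphatase 1, went from 11.8 to 21.8. Also among them were the melanocortin receptor Mc5r (7.71 to 13.7 FPKM), the coenzyme Q factor Coq8a (3.97 to 7.46) and the acute-phase protein Saa3 (499 to 862). Cox8b, a cytochrome oxidase subunit of muscle and brown fat, measured 4.43, 2.06 and 1.76 FPKM and then 5.96, 5.9 and 6.27. Its first library at 50 µM was far above the other two, and its adjusted p of 0.0183 rose to 0.0631 at most when a library was left out, the call being lost without the second or the third library at 50 µM or the third at 100 µM.

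Ndufa4l2 and the chemokines Cxcl14 and Cxcl5 were among the 15 largest decreases. These 15 genes were picked among called genes whose values did not overlap between the doses. Their separation and their tests therefore describe them only. Ndufa4l2, a hypoxia-induced relative of a cytochrome oxidase subunit (chromosome 10, 135576184 to 135578397), measured 28.8, 37.7 and 43.2 FPKM at 50 µM and 13.9, 11.2 and 11.5 at 100 µM. All values at 100 µM were under those at 50 µM, which spread more widely among themselves (log2 difference -1.50 ± 0.136, adjusted p = 0.00026). The chemokine Cxcl14 measured 22.4, 28.4 and 29.6 FPKM and then 9.9, 9.41 and 8.1, with no overlap (log2 difference -1.45 ± 0.105, adjusted p = 0.000194). Cxcl5, a chemokine that attracts neutrophils, went from 33, 37.9 and 40.7 FPKM to 17.7, 15.6 and 14.5. It too separated the doses (log2 difference -1.17 ± 0.0888, adjusted p = 0.000194).

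Ctgf, a matrix-associated growth factor and a classical target of the mechanosensitive factor YAP, measured 77.4, 88.1 and 102 FPKM at 50 µM and 39.6, 41.2 and 39.4 at 100 µM. Its 100 µM libraries lay close together and well below the others (log2 difference -1.12 ± 0.105, adjusted p = 0.000289). The metalloproteinase Mmp3, which breaks down matrix, measured 76.4, 87.4 and 91.5 FPKM and then 43, 40.5 and 35.4. The separation was complete here as well (log2 difference -1.08 ± 0.081, adjusted p = 0.000194). Spp1 (osteopontin) averaged 62 FPKM at 50 µM and 28.9 at 100 µM, Timp1, an inhibitor of metalloproteinases, 203 and 104, and S100a6, a calcium-binding protein, 344 and 159. Among the rest of the 15 were the water channel Aqp1, the keratin Krt19, the membrane protein Emp1, the cholesterol hydroxylase Ch25h, the myeloid lectin Clec4n and the arginine-synthesis enzyme Ass1, with log2 differences between -1.26 and -0.92. In all 15 genes the mean at 0 µM was nearer to that at 50 µM than to that at 100 µM. Ctgf averaged 75.7 FPKM at 0 µM, Mmp3 89.2, Timp1 204 and Ndufa4l2 31.2.

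**Figure D2:**
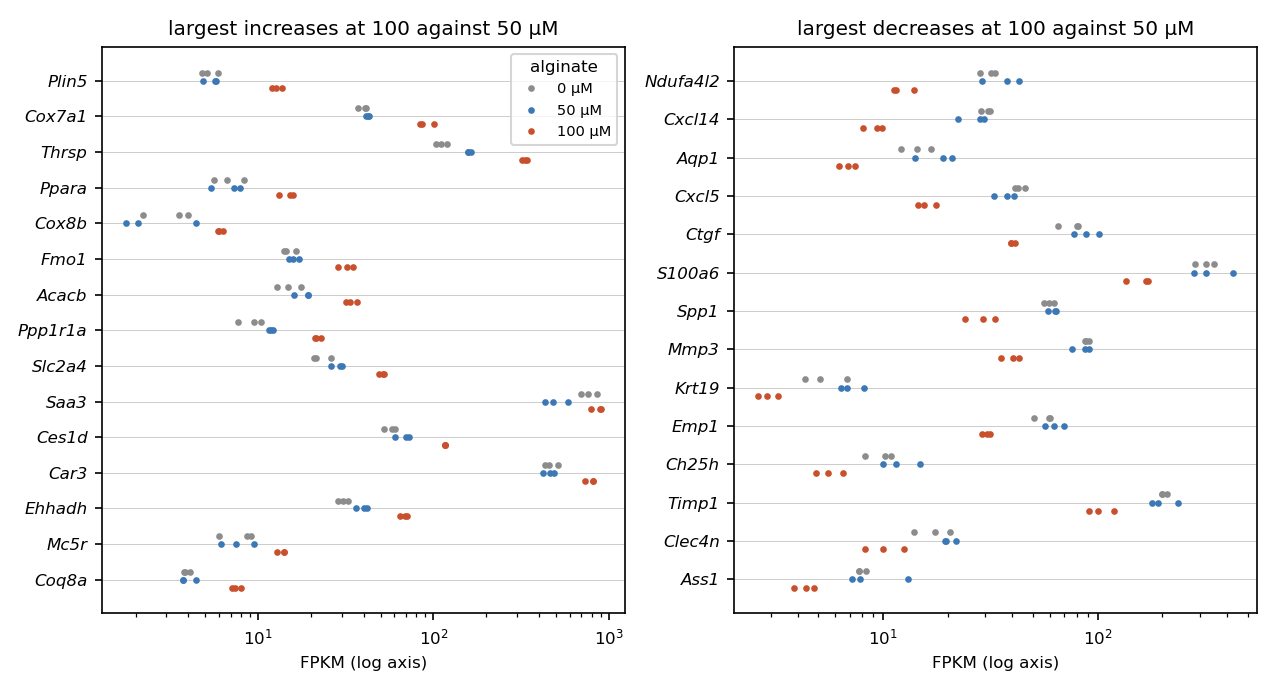
FPKM (log axis) in every library for the 15 largest increases (left) and 14 of the 15 largest decreases (right) among protein-coding genes, with 1 point per library and the 0 µM libraries in grey. For each gene the 3 red points at 100 µM lie to one side of the 3 blue points at 50 µM, as the choice of genes required; the grey points mostly lie near the blue ones, with Thrsp (111 FPKM at 0 µM against 160 at 50 µM) and Saa3 (773 against 499) further away.

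To show the sequence beside these values, the 250 bases before the start of transcription were taken from RefSeq (GRCm38.p6) for the genes with the largest changes. Of the 30 genes, 18 had an entry. The windows were searched on both strands for 7 motifs: AGGNCANAGGNCA, the direct repeat bound by PPAR with RXR; CACGTG, the E-box; TCACNCCAC, a sterol element; TTGCNNAA, bound by C/EBP factors; TGANTCA, bound by AP-1; GGAATG, bound by TEAD, the partner of YAP; and GGGNNTTCC, bound by NF-kB. The direct repeat matched in none of the windows of these genes. Below are 2 windows of genes that rose and 2 of genes that fell, chosen because they hold matches, written 5′ to 3′ in the direction of transcription with the matches in capitals.
Plin5, chr17:56117549-56117798, minus strand: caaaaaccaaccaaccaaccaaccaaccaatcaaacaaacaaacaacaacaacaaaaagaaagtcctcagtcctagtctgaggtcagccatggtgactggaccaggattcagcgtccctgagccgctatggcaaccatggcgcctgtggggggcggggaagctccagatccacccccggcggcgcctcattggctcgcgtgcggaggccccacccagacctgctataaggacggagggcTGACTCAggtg
Saa3, chr7:46715677-46715926, minus strand: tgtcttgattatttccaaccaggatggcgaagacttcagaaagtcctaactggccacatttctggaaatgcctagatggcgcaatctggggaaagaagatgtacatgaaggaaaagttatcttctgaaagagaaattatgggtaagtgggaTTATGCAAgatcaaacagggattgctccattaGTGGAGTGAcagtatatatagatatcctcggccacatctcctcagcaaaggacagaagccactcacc
Mmp3, chr9:7445572-7445821, plus strand: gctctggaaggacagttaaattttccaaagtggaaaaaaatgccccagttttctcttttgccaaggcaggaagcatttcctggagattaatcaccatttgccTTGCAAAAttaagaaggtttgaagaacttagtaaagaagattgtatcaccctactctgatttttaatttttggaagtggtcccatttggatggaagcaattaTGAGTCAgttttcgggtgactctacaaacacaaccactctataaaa
Emp1, chr6:135362681-135362930, plus strand: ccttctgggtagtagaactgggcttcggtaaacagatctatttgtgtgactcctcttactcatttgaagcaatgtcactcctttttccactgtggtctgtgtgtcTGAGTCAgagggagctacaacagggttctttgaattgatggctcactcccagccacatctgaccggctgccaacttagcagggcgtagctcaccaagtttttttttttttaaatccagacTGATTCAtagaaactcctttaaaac

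The capitals in Plin5 are an AP-1 match that begins at -11, and a second RefSeq start of Plin5 has no match. Saa3 holds a C/EBP match at -99 and a sterol match at -67. Mmp3 holds a C/EBP match at -148 and an AP-1 match at -46. Emp1 holds AP-1 matches at -145 and -25 and, at its other start, none. No match shown overlaps a match of another motif. TGANTCA is common, since it occurs in 6.75% of the 32851 windows of the table and in 4.45% of those of tested genes. It was found in 4.61% of the windows of genes that rose and in 5.68% of those of genes that fell. GGAATG was found in 10.6% of the windows of tested genes, 9.46% of those of genes that rose and 13.8% of those of genes that fell. In the same order, TTGCNNAA was found in 7.56%, 8.59% and 7.52%, and TCACNCCAC in 1.01%, 1.31% and 1.44%. CACGTG was found in 8.43%, 9.46% and 7.25%, and GGGNNTTCC in 6.29%, 5.67% and 6.63%. For the direct repeat the shares were 0.18%, 0.249% and 0.342%. A match is a run of letters, and whether any factor binds there was not measured.

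PPARs bind DNA together with RXR and recruit coactivators of the PGC-1 family. Of 20 tested genes for PPARs, partners and coactivators, 6 rose and none fell, with a median of 0.15 against 0.0066 over all genes tested. Pparg, the receptor that directs fat cell formation (chromosome 6, 120977640 to 121121081), measured 47.3, 47.5 and 43.8 FPKM at 50 µM and 50.6, 55.7 and 57.9 at 100 µM. The values did not overlap but the gap was small. The log2 difference was 0.24 ± 0.0556 (adjusted p = 0.0134), and it missed the threshold on the TPM scale and after quantile normalization, with an adjusted p of up to 0.0875. The coactivator Ppargc1a, which promotes mitochondrial genes, measured 3.65, 3.81 and 2.35 FPKM and then 5.86, 5.99 and 5.87, a log2 difference of 0.71 ± 0.132 (adjusted p = 0.00462). The related Ppargc1b went from 12.6 ± 1.32 to 19.2 ± 2.28 FPKM. Both coactivators separated the doses without overlap. On the TPM scale 3 of the 20 rose.

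Among 16 tested adipogenic transcription factors, 4 rose and 2 fell, with a median of 0.05 that turned to -0.01 with voom on the rebuilt reads. Cebpa, the partner of PPAR gamma, measured 281, 295 and 286 FPKM at 50 µM and 415, 363 and 346 at 100 µM. All 3 libraries at 100 µM were higher (log2 difference 0.38 ± 0.066, adjusted p = 0.00341). The other increases were in regulators of lipid synthesis. Srebf1, which encodes SREBP-1, went from 81.3 ± 2.96 to 109 ± 3.84 FPKM, Mlxipl (ChREBP), a glucose-responsive factor, from 7.37 ± 1.05 to 11.6 ± 0.545, and Nr1h3 (LXR alpha), a sterol-responsive receptor, from 27 ± 0.447 to 36 ± 2.09. The decreases were in Klf4, an early adipogenic factor (21.8 to 17.5 FPKM), and Klf2, described as an inhibitor of fat cell formation (5.06 to 3.26). The call of Klf2 was lost without library 3 at 0 µM, 2 or 3 at 50 µM or 1 or 2 at 100 µM and after quantile normalization, and 4 of the 16 genes fell on the TPM scale and with voom.

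**Figure D3:**
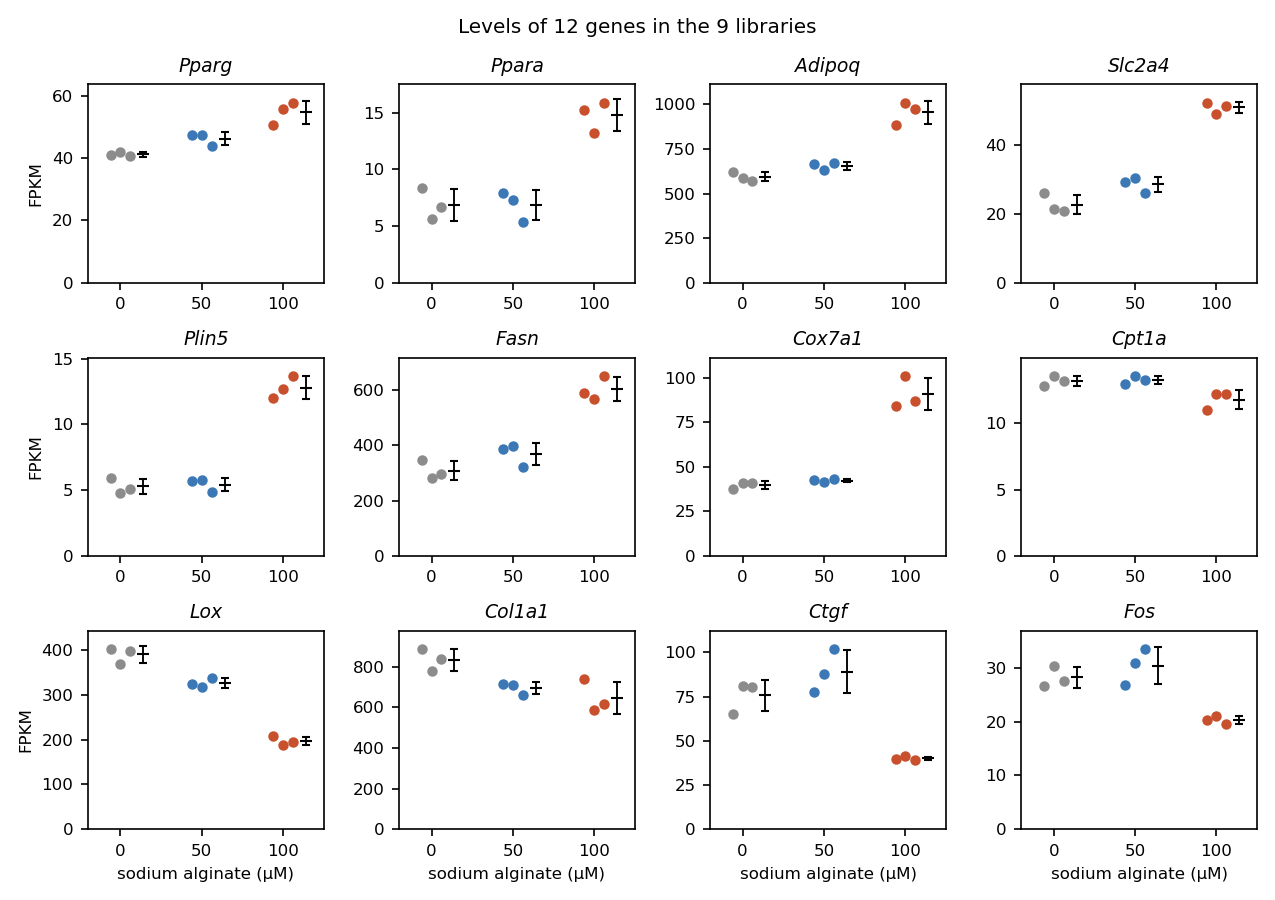
FPKM of 12 genes in the 9 libraries by alginate dose, with 1 point per library and the mean ± SD beside each group of 3 (axes start at 0). Ppara, Plin5 and Cox7a1 lie at like levels at 0 and 50 µM and higher at 100 µM (Ppara averages 6.87, 6.85 and 14.8 FPKM), while the points of Col1a1 overlap between 50 and 100 µM.

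Of the 28 tested adipocyte markers, 24 rose and none fell, against 13.2% of all genes rising. Among the 526 genes at 100 FPKM or more, where several of these markers lie, 210 rose. Adipoq, the gene of the hormone adiponectin, measured 665, 631 and 670 FPKM at 50 µM and 884, 1011 and 972 at 100 µM. The ranges lay far apart (log2 difference 0.54 ± 0.0608, adjusted p = 0.000431). Agpat2, an enzyme of triglyceride synthesis, measured 499, 472 and 496 FPKM and then 768, 762 and 746, a log2 difference of 0.63 ± 0.0482. Fabp4, the fatty acid carrier, measured 2784, 2555 and 3029 FPKM and then 3559, 3850 and 3490. It did not overlap either (log2 difference 0.38 ± 0.0726, adjusted p = 0.00511), though quantile normalization, which gives all libraries the same set of values, turned the difference to -0.06. The perilipin Plin1 went from 250 ± 3.81 to 310 ± 6.7 FPKM and lipoprotein lipase (Lpl) from 1414 ± 40.9 to 1776 ± 47. Over the list the median log2 difference was 0.39, and the markers together took 4.42% to 4.63% of reads at 50 µM and 5.66% to 5.98% at 100 µM. At 0 µM they took 4.12% to 4.18%. The genes named here were also lower at 0 than at 50 µM. At 0 µM Adipoq averaged 594 FPKM, Agpat2 399, Fabp4 2601, Plin1 209 and Lpl 1358.

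Fatty acid synthesis showed one of the highest medians, 0.47, with 17 of 22 genes higher and none lower. The pathway starts from citrate, which Acly splits into acetyl-CoA. Acly measured 146, 143 and 126 FPKM at 50 µM and 212, 230 and 240 at 100 µM, with a log2 difference of 0.72 ± 0.0682 (adjusted p = 0.000295). Fasn, the fatty acid synthase, measured 387, 397 and 322 FPKM and then 591, 567 and 652 (log2 difference 0.71 ± 0.102, adjusted p = 0.00125). In both genes the third library at 50 µM was the lowest, and in neither did the doses overlap. Acss2, which makes acetyl-CoA from acetate, went from 11.7 ± 0.329 to 20 ± 0.952 FPKM, and Me1, a source of NADPH, from 218 ± 9.75 to 328 ± 11.2.

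Of 20 tested desaturases and elongases, 9 rose and 1 fell, with a median of 0.10. The counts were 7 and 2 on the TPM scale and without the authors' factor. They were 6 and 3 after quantile normalization and 7 and 3 with voom. Scd1, which makes monounsaturated fatty acids, measured 2127, 2161 and 1854 FPKM and then 3091, 3304 and 3685, among the highest values of any gene. The log2 difference was 0.71 ± 0.0968 (adjusted p = 0.000954), but after quantile normalization it missed the threshold with an adjusted p of 0.113. Scd1 and Scd2 are close copies between which reads may be split. Elovl3, an elongase induced in brown fat, went from 150 ± 3.52 to 239 ± 7.58 FPKM and Hsd17b12, which takes part in elongation, from 375 ± 2.38 to 531 ± 14.4. The 1 decrease was Hacd4, a dehydratase of very long chain fatty acid synthesis, from 3.04 ± 0.12 to 1.49 ± 0.0797 FPKM.

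Triglyceride assembly had 12 of 18 genes higher and 2 lower. Dgat2, which adds the last fatty acid, measured 57.9, 58.2 and 58.5 FPKM at 50 µM and 88.5, 86.8 and 85.2 at 100 µM. Libraries of each dose were nearly identical, and the log2 difference was 0.57 ± 0.0406 (adjusted p = 0.000194). Its counterpart Dgat1 went from 95.7 ± 1.09 to 133 ± 3.37 FPKM and the phosphatidate phosphatase Lpin1 from 67.5 ± 5.07 to 108 ± 3.23. The decreases were in Agpat4 and Lpin3, with log2 differences of -0.43 each. Among 17 lipid droplet proteins 9 rose and 2 fell. Cidec, which helps droplets fuse, went from 864 ± 7.91 to 1159 ± 52.6 FPKM and Fitm2, needed for droplet formation, from 90.1 ± 4.84 to 124 ± 2.29. The decreases were Hilpda, an inhibitor of lipolysis induced by hypoxia (log2 difference -0.38), and Hsd17b11 (-0.30). Neither was called without library 3 at 0 µM, 2 or 3 at 50 µM, or 2 or 3 at 100 µM.

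Lipolysis moved in the same direction as storage. Of 26 genes for lipases and their adrenergic control, 20 rose and 1, the adenylyl cyclase Adcy3, fell. Lipe, hormone-sensitive lipase, measured 158, 161 and 155 FPKM and then 220, 205 and 204, a log2 difference of 0.40 ± 0.0446 (adjusted p = 0.000419). Abhd5, the activator of adipose triglyceride lipase, went from 134 ± 1.57 to 169 ± 5.26 FPKM. For fatty acid uptake and activation, 11 of 19 genes rose and 2 fell. Slc27a1, a fatty acid transporter, went from 44.8 ± 1.25 to 68.9 ± 3.47 FPKM, Acsl1, which activates fatty acids, from 472 ± 23.9 to 692 ± 49.7, and Fabp5 from 354 ± 16.2 to 490 ± 20.4. The decreases were the transporter Slc27a3 (-0.39) and the acyl-CoA synthetase Acsl4 (-0.18). Neither was called without library 1 or 2 at 50 µM or library 2 or 3 at 100 µM.

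In mitochondrial fatty acid oxidation most genes were higher, with 23 of 26 genes higher, 2 lower and a median of 0.44. Acadl, which starts the oxidation of long chains, measured 260, 256 and 252 FPKM at 50 µM and 371, 413 and 411 at 100 µM. The lowest value at 100 µM exceeded the highest at 50 µM by a wide margin (log2 difference 0.63 ± 0.0564, adjusted p = 0.000254). The trifunctional protein subunits followed, with Hadha going from 69.3 ± 2.4 to 99.9 ± 2.56 FPKM and Hadhb from 67.8 ± 2.2 to 96.6 ± 1.47. Both decreases were in carnitine palmitoyltransferase 1, the entry step to the mitochondrion. The liver-type form Cpt1a measured 13, 13.6 and 13.3 FPKM and then 11, 12.2 and 12.2. Its log2 difference was -0.16 ± 0.0501 with an adjusted p of 0.0416, which exceeded 0.05 when any of the 9 libraries was left out. The neuronal form Cpt1c had a log2 difference of -0.38.

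Peroxisomes, which shorten very long chains, had 24 of 37 genes higher and 1 lower. Besides Ehhadh, the import factors Pex6 (19.3 ± 0.244 to 24.9 ± 0.46 FPKM) and Pex19 (78.2 ± 0.345 to 100 ± 1.76) rose, as did the membrane protein Pxmp4 (34.9 ± 0.587 to 46.1 ± 1.75). The single decrease was Far1, which makes fatty alcohols for ether lipids, with a log2 difference of -0.18, and it was called in only 1 of the 9 fits that left out a library, the one without library 3 at 50 µM.

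Genes of every respiratory complex rose. Of 36 nuclear genes of complex I, 29 rose and none fell, and all 36 had a log2 difference above 0. Ndufv1, the subunit that takes electrons from NADH, measured 81.2, 79.9 and 79.4 FPKM at 50 µM and 113, 112 and 109 at 100 µM. The doses were sharply separated (log2 difference 0.47 ± 0.0376, adjusted p = 0.000212). All 14 genes of complexes II and III with cytochrome c rose, with differences from 0.28 to 0.53. Cytochrome c itself (Cycs) went from 170 ± 5.52 to 246 ± 6.66 FPKM. In complex IV 13 of 18 genes rose and 1, Ndufa4l2, fell. The muscle and brown fat forms Cox7a1 and Cox8b changed by 1.08 and 0.98, whereas the widespread subunit Cox6a1 changed by 0.49 (404 ± 20.8 to 566 ± 20.6 FPKM). Of 20 genes for ATP synthase and the nucleotide carriers, 16 rose and none fell, among them the catalytic subunits Atp5a1 (459 ± 8.63 to 613 ± 23.3 FPKM) and Atp5b (513 ± 12.2 to 694 ± 16.1). Genes of the mitochondrial genome were not analysed here.

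Upstream of the chain, 29 of 35 genes for pyruvate entry and the citric acid cycle rose and 1 fell, with a median of 0.46. Mdh1, cytosolic malate dehydrogenase, went from 269 ± 5.08 to 398 ± 13.6 FPKM. The decrease was Pdk3, a kinase that turns off pyruvate dehydrogenase, with a log2 difference of -0.37. Breakdown of branched-chain amino acids, a fuel of maturing fat cells, had 20 of 27 genes higher. The mitochondrial aminotransferase Bcat2 went from 108 ± 4.29 to 153 ± 3.76 FPKM, while its cytosolic counterpart Bcat1 was the 1 member that fell (-0.41). Of 73 genes of the mitochondrial ribosome, 47 rose and none fell. Their median was 0.24, Mrps23 going from 47.8 ± 3.34 to 66.4 ± 3.07 FPKM, and the count was 30 without the second library at 50 µM, 28 without the second at 100 µM and 29 without the authors' factor. By contrast, of 77 genes of the cytosolic ribosome only Rps19bp1, whose product binds a ribosomal protein, was called. The median of that list was -0.10, and it held 26 called decreases after quantile normalization, 23 with voom on the rebuilt reads and 12 on the TPM scale.

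**Figure D4:**
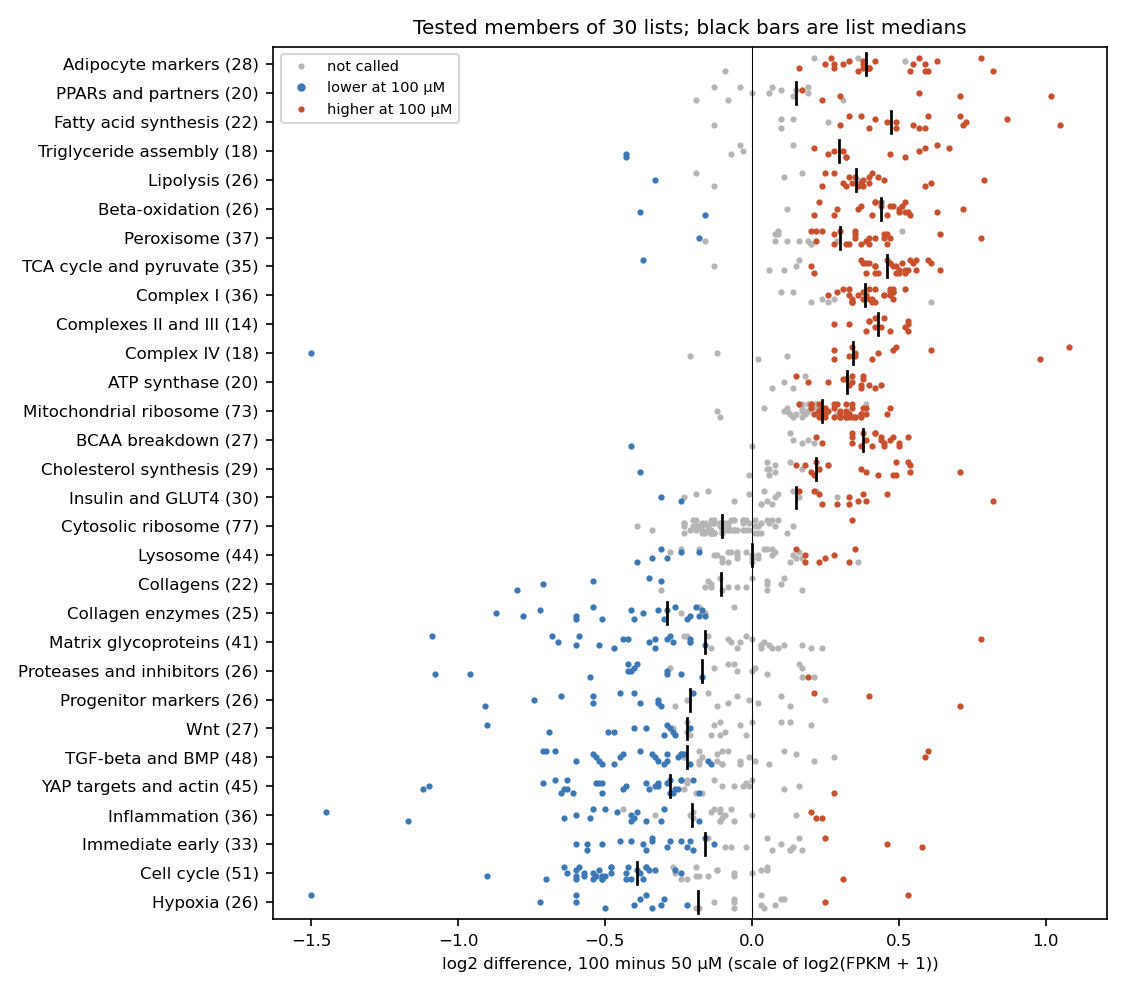
Each point is 1 tested gene of the list named at the left, placed by its log2 difference between 100 and 50 µM, with the number tested in brackets; some genes are in several lists. Black bars are list medians: those of lipid and mitochondrial lists lie to the right of 0 (0.47 for fatty acid synthesis) and those of matrix, YAP and cell cycle lists to the left (-0.39 for cell cycle).

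In cholesterol synthesis, uptake and efflux 17 of 29 genes rose and 1, the esterifying enzyme Soat1, fell; on the TPM scale 11 rose. Cyp51, which demethylates lanosterol, went from 114 ± 8.23 to 188 ± 15.6 FPKM and Dhcr7, the last step of the pathway, from 34 ± 0.305 to 50 ± 1.83. In glycolysis, the pentose phosphate pathway and glycogen metabolism 18 of 31 genes rose and 3 fell, against 13 and 6 on the TPM scale, 12 and 6 without the authors' factor and 14 and 6 with voom. Taldo1 of the pentose phosphate pathway went from 174 ± 3.19 to 243 ± 6.95 FPKM and G6pdx, which makes NADPH, from 131 ± 5.92 to 185 ± 9.94. The decreases were hexokinase Hk1 (-0.33), pyruvate kinase Pkm (-0.28) and the lactate exporter Slc16a3 (-0.87). For insulin signalling and GLUT4 traffic, 12 of 30 genes rose and 2 fell, but 7 rose without the third library at 50 µM, 6 without the third at 100 µM and 5 on the TPM scale. The regulatory subunit Pik3r1 went from 45 ± 3.26 to 62.3 ± 4.56 FPKM. The decreases were the widespread glucose transporter Slc2a1 (-0.31) and Grb10, an inhibitor of the insulin receptor (27.3 ± 0.545 to 23 ± 1.02 FPKM).

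Of 17 tested genes linked to thermogenic fat, 8 rose and 2 fell. The potassium channel Kcnk3 went from 20.6 ± 1.34 to 32.5 ± 0.215 FPKM and Letmd1, a mitochondrial protein, from 33.3 ± 2.24 to 50.1 ± 0.0761. The decreases were the creatine transporter Slc6a8 (-0.31) and the phosphatase Alpl (-0.52). Ucp1, the uncoupling protein that defines the thermogenic fat cell, was under the expression threshold. It measured 0.145, 0.189 and 0.194 FPKM at 50 µM and 0.255, 0.269 and 0.284 at 100 µM, and was not tested.

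Matrix genes fell more often than they rose. Of 25 enzymes and chaperones of collagen, 20 fell and none rose, against 12% of all genes falling, and all 25 had a log2 difference below 0. Lysyl oxidase (Lox), which cross-links collagen and elastin, measured 324, 317 and 338 FPKM at 50 µM and 208, 189 and 194 at 100 µM. No library overlapped (log2 difference -0.72 ± 0.0539, adjusted p = 0.000194), and the level at 0 µM was 391 FPKM. Its relative Loxl2 went from 50.3 ± 2.54 to 32.8 ± 0.808 FPKM, and the prolyl hydroxylases P4ha1 and P4ha2 from 64.5 ± 2.31 to 48.6 ± 0.506 and from 25.5 ± 0.671 to 16.5 ± 1.85.

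Most collagen chains were not called. Of 22 tested, 5 fell and none rose. Col1a1 measured 713, 708 and 659 FPKM and then 738, 588 and 615, with overlap (log2 difference -0.10, 95% interval -0.30 to 0.09, adjusted p = 0.427). It averaged 834 FPKM at 0 µM. Those that fell were Col12a1, which decorates fibrils (43.5 ± 2.52 to 24.5 ± 1.9 FPKM), Col8a1 (4.03 to 2.08), Col11a1 (6.16 to 3.93), Col18a1 (54.9 to 42.9) and Col16a1 (log2 difference -0.31), whose call was lost when any 1 library at 50 µM or library 2 or 3 at 100 µM was left out. With voom on the rebuilt reads 12 chains fell, and without the first library at 100 µM 8 did.

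Among 41 matrix glycoproteins and elastic fibre genes 18 fell and 1 rose. Besides Spp1, the decreases included thrombospondin 2 (Thbs2, 91 ± 4.79 to 60.2 ± 3.48 FPKM), Emilin2 (64.8 ± 0.635 to 44.9 ± 2.1) and Mfap5 (32.4 ± 3.24 to 19.7 ± 0.532), a microfibril protein. The increase was lumican (Lum), a small proteoglycan of collagen fibrils, from 1.7 ± 0.228 to 3.64 ± 0.15 FPKM. Proteases and their inhibitors had 12 decreases and 1 increase in 26 genes. Plau, urokinase, went from 20.1 ± 0.545 to 13.4 ± 0.998 FPKM, the inhibitor Timp2 from 124 ± 3.61 to 93 ± 3.39 and the sheddase Adam9 from 113 ± 3.9 to 84.5 ± 0.401. The increase was the gelatinase Mmp2 (123 ± 7.98 to 140 ± 4.18 FPKM, adjusted p = 0.0453), whose call was lost in 7 of the 9 fits that left out a library, all but those without library 3 at 0 µM or library 1 at 50 µM. Integrins and laminins had 9 decreases and 3 increases in 22 genes, or 1 increase without library 3 at 50 µM or library 3 at 100 µM. The fibronectin receptor subunit Itga5 went from 80.9 ± 5.28 to 48.4 ± 0.571 FPKM, while the laminin receptor subunit Itga6 went up from 34.5 ± 2.72 to 42.7 ± 1.4.

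Stress fibres and nuclear YAP are features of spread, contractile cells. Of 45 tested actin and YAP genes, 30 fell and 1, the LIM protein Fhl1, rose, with a median of -0.28. Actn1, an actin cross-linker, measured 39, 42.8 and 44.2 FPKM at 50 µM and 27.7, 25.6 and 26.1 at 100 µM, without overlap (log2 difference -0.64 ± 0.0616, adjusted p = 0.000301). The receptor kinase Axl, a YAP target, went from 50.6 ± 1.49 to 32.3 ± 1.8 FPKM and the smooth muscle actin Acta2 from 181 ± 16.9 to 114 ± 7.12. Ctgf belongs to this list too.

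Progenitor and stromal markers had 12 decreases and 3 increases in 26 genes. Pdgfra, which marks fat progenitors, measured 41, 41 and 38.9 FPKM and then 31.8, 31.4 and 33.6, a log2 difference of -0.31 ± 0.0448 (adjusted p = 0.00125). It averaged 52.1 FPKM at 0 µM. Thy1, a stromal surface protein, went from 154 ± 11.8 to 97.9 ± 7.36 FPKM and the annexin Anxa3 from 20.9 ± 1.56 to 10.7 ± 0.296. The increases were Clec3b (19.8 ± 1.7 to 33.1 ± 4.21 FPKM), Smoc1 (29.7 to 39.4) and Abcg1 (16.8 to 19.6). The call of Abcg1 was lost without library 1 at 50 µM or 2 at 100 µM, on the TPM scale, without the authors' factor and with voom.

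Signalling that holds back fat cell formation was represented by the Wnt and TGF-beta lists. Of 27 Wnt genes 12 fell and none rose, a count that was 7 without the second library at 100 µM. The secreted Wisp2, a Wnt-inducible factor of preadipocytes, measured 110, 110 and 117 FPKM and then 71.7, 66.1 and 69.6. The drop was far larger than the spread (log2 difference -0.69 ± 0.0496, adjusted p = 0.000194). The receptors Fzd1 and Ror1 went from 26.4 ± 1.4 to 18.8 ± 0.637 and from 14.9 ± 0.84 to 10.3 ± 0.641 FPKM. Of 48 TGF-beta, BMP and activin genes 25 fell and 2 rose. Inhba and Inhbb, which encode activin subunits, went from 7.54 ± 0.362 to 4.24 ± 0.549 and from 6.41 ± 0.231 to 4.2 ± 0.32 FPKM. The increases were the receptor Acvr1c, which fat cells express (log2 difference 0.60), and the BMP antagonist Chrdl1 (0.59), and in 6 of the 9 fits that left out a library the call of Acvr1c was lost.

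Cell division genes fell in 34 of 51 cases, with 1 increase and a median of -0.39. Top2a, which untangles replicated DNA, measured 13.9, 15.1 and 14.1 FPKM at 50 µM and 9.17, 9.7 and 10.1 at 100 µM. These values did not overlap (log2 difference -0.53 ± 0.0489, adjusted p = 0.000282), and the level at 0 µM, 13.8 FPKM, was near that at 50 µM. The cyclins Ccna2 and Ccnd1 went from 10.9 ± 0.688 to 7.26 ± 0.205 and from 19.2 ± 2.9 to 9.76 ± 0.644 FPKM. The increase was Cdkn2c, an inhibitor of cyclin-dependent kinases (42.2 ± 1.76 to 52.5 ± 1.17 FPKM).

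Immediate early and hormone response genes had 18 decreases and 3 increases in 33, but 7 decreases without the third library at 50 µM and 9 without the third at 100 µM. Fos, an AP-1 subunit, measured 26.8, 30.9 and 33.5 FPKM and then 20.2, 21 and 19.6, and its relative Fosl1 27.2, 31.7 and 33.3 and then 20.2, 19.8 and 19.6. In both genes the first library at 50 µM was nearest to the 100 µM libraries, which hardly varied (log2 differences -0.56 ± 0.0793 and -0.60 ± 0.0821, adjusted p = 0.00123 and 0.000987). The increases were Fosb, a further AP-1 subunit (10.3 ± 0.689 to 15.9 ± 1.61 FPKM), the phosphatase Dusp4 (40.3 ± 2.19 to 55.6 ± 1.07) and the factor Egr3 (23.2 ± 1.6 to 27.8 ± 1.28). The call of Egr3 was lost without library 1 or 3 at 50 µM or 2 or 3 at 100 µM, on the TPM scale, after quantile normalization, without the authors' factor and with voom.

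Of 36 inflammation genes 16 fell and 3 rose. Besides Cxcl14 and Cxcl5, the macrophage growth factor Csf1 went from 136 ± 5.67 to 87.1 ± 3.48 FPKM and the chemokine Ccl9 from 20.1 ± 0.986 to 13.4 ± 0.977. The increases were Tnfaip3, Cxcl12 and Ptges, with log2 differences from 0.20 to 0.24. The number of increases was 1 on the TPM scale, after quantile normalization and without library 3 at 0 µM or library 2 or 3 at 50 µM, and 0 without the second at 100 µM. Acute-phase and complement genes were split, with 5 increases and 8 decreases in 24. Saa3, a serum amyloid made by fat cells, measured 586, 431 and 480 FPKM at 50 µM and 905, 888 and 791 at 100 µM, and 773 on average at 0 µM. It was thus lowest at 50 µM, and the doses compared did not overlap (log2 difference 0.80 ± 0.116, adjusted p = 0.00138). The complement component C7 followed the same order, averaging 7.93, 5.38 and 9 FPKM at 0, 50 and 100 µM. C3, Hp and Cfd were the other increases, at 0.54, 0.31 and 0.36. The call of Cfd was lost when any 1 of the 6 libraries compared was left out, and that of Hp in every fit without 1 of the 9 libraries but the one without library 3 at 100 µM. Without 1 library at a time, 3 or 4 of the 24 were higher, with 3 when any library at 50 µM or the first or second at 100 µM was left out. Of 33 interferon genes 4 rose and 1 fell, although 27 of the 33 had a log2 difference below 0 and the median was -0.17. The balance depended on the fit, with 4 higher and 10 lower with voom, 3 and 6 with the replicate block and 1 and 3 without the authors' factor. The decreases numbered 4 without library 3 at 0 µM, 3 without library 2 at 50 µM and 2 without library 3 at 100 µM, and 2 genes rose without the second library at 50 µM or the first or the third at 100 µM.

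Hypoxia regulators and targets had 12 decreases and 2 increases in 26 genes. Apart from Ndufa4l2, these were in part the collagen enzymes Lox and P4ha1 that stand in both lists. Adipokines and other secreted factors were divided, with 6 increases and 8 decreases in 24. Apolipoprotein E (Apoe) rose from 85.5 ± 3.43 to 114 ± 0.734 FPKM, and Adipoq rose as given above, whereas Inhbb fell. The increases numbered 3 without the first or the second library at 50 µM, without the second at 100 µM and without the authors' factor. Lysosomal genes (8 higher and 6 lower of 44), ER chaperones and stress response genes (7 and 8 of 35) and antioxidant genes (6 and 10 of 40) had medians near 0, the latter pair -0.06 and -0.03. On other scales the lysosomal decreases outnumbered the increases, with 6 higher and 12 lower on the TPM scale, 6 and 13 after quantile normalization, 5 and 13 without the authors' factor and 7 and 13 with voom. The antioxidant decreases numbered 4 to 6 without library 2 or 3 at 50 µM or any library at 100 µM, and the ER decreases 5 without library 3 at 50 µM or library 2 or 3 at 100 µM. Enzymes of taurine synthesis in the antioxidant list rose, Cdo1 from 465 ± 11.6 to 767 ± 20.8 FPKM and Csad from 33.8 ± 1.83 to 44.4 ± 1.38. Of 16 clock genes 5 rose and none fell, or 3 without library 1 at 0 µM, 2 or 3 at 50 µM or 2 at 100 µM and 2 without library 3 at 100 µM, and on the TPM scale 1 rose. Of 15 IGF system genes 1 rose and 3 fell, and the increase was not called when any 1 of the 6 libraries compared was left out. None fell without library 1 at 50 µM or library 2 at 100 µM, 1 fell without library 2 at 50 µM or library 3 at 100 µM, and 7 fell on the TPM scale and after quantile normalization and 10 with voom.

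Macrophage, endothelial and mural markers fell more often than they rose. The endothelial and mural lists each share a gene with the progenitor list. Of 16 tested macrophage markers 12 fell and none rose, and the 23 found in the table took 0.0919% to 0.0947% of reads at 50 µM and 0.0669% to 0.0699% at 100 µM. The Fc receptor gene Fcgr3 measured 21.3, 19.7 and 21.1 FPKM and then 14.3, 13.9 and 14.5, a log2 difference of -0.51 ± 0.0639 (adjusted p = 0.000681). Mrc1, the mannose receptor, went from 45.8 ± 3.54 to 32.5 ± 1.96 FPKM and Cd68 from 38.8 ± 0.359 to 29.7 ± 1.62. The markers found but under the threshold included Ptprc (CD45), which averaged 0.367 and 0.278 FPKM, and Ccr2, which was at 0 in all 6 libraries. Endothelial markers fell in 13 of 22 cases, or 7 without the third library at 50 µM or the second at 100 µM, and took 0.119% to 0.13% and then 0.0946% to 0.0959% of reads. Pecam1 went from 30 ± 1.02 to 24.8 ± 0.673 FPKM. Of 12 mural cell markers 5 fell, or 3 without the first or the third library at 50 µM or the second at 100 µM, and the list took 0.0998% to 0.11% and then 0.0746% to 0.076% of reads. The median of the mural list was -0.12, and 5 of its 12 tested genes had a log2 difference above 0.

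Few markers of further types were expressed. Of 12 mesothelial markers sought, 3 were tested and 2 fell, Krt19 and Gpm6a, while Msln averaged 0.107 and 0.0537 FPKM and Upk1b was at 0 in all 6 libraries. Gpm6a was not called without library 2 or 3 at 50 µM or library 2 or 3 at 100 µM, nor with the replicate block. The Schwann list had 5 tested genes, of which Egr2 and Pmp22 fell, and the muscle list 2, of which Mylpf was called lower. Mylpf reached 1 FPKM in no library at 100 µM, and its call was lost after quantile normalization, with voom, with the replicate block and without library 1 at 0 µM, 2 or 3 at 50 µM or 1, 2 or 3 at 100 µM. In the muscle list Myod1, Myf5 and Pax7 were at 0 in all 6 libraries. None of the lymphocyte and erythroid markers and 1 epithelial marker, which was not called, reached the threshold. The part of these cells in the decreases of matrix, actin, chemokine and cell division genes was not tested.

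**Figure D5:**
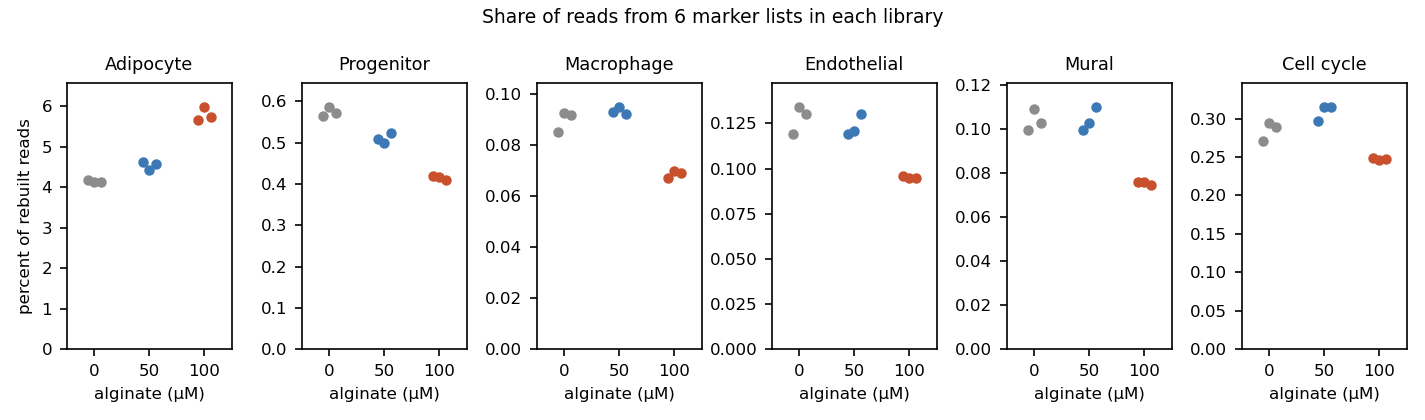
Percent of rebuilt reads taken by 6 marker lists in each library (1 point per library, axes start at 0). Adipocyte markers are higher in all 3 libraries at 100 µM (5.66% to 5.98% against 4.42% to 4.63% at 50 µM), while progenitor, macrophage, endothelial, mural and cell cycle lists are lower in all 3.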

How the data were processed

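The authors deposited a table of FPKM values per gene for 9 libraries of total RNA, with gene lengths. Per the submitters' processing notes the builds were GRCm38 and mm10, but the table uses gene identifiers and coordinates of the C57BL/6NJ assembly, which were not converted. The aligner, counter and strand setting: not given in the sources used here. For this reason overlapping genes and close copies such as Ces1d, Saa3 and the Scd family are uncertain. FPKM times length gave whole reads for every value within a tolerance of 0.01.

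Genes reaching 1 FPKM in 3 or more of 9 libraries were fitted with limma 3.58.1 (R 4.3.3) on log2(FPKM + 1), with 1 mean per dose, a variance trend and Benjamini-Hochberg adjustment over 12635 genes. Called means an adjusted p below 0.05, two-sided. Members and gene lists were chosen with earlier results of these data known. Named genes were the 15 largest called increases and decreases among protein-coding genes (at least 5 FPKM in the higher group, no overlap), up to 4 of each list by smallest p, a fixed set of fat cell genes, and all called members where a list had 5 or fewer in a direction. Others, in the closing section, were chosen after their values were seen. Alternatives covered pseudocount, filter, scaling, voom, the replicate block and leaving out each library. Some named genes are not reported here. The method was tested on simulated data. Tables and figures used Python 3.11.15, pandas 2.3.3 and matplotlib 3.10.9.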

Additional observations from a re-analysis of the deposited data

How the results depend on the processing

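Of 1663 increases and 1510 decreases, the counts stayed within 1.5 times under every alternative but 3. Increases numbered 1050 on the TPM scale and 1102 without the authors' factor (an alternative chosen after seeing the data), and decreases numbered 2508 with voom on the rebuilt reads. Without 1 library at a time, increases ranged from 1171 to 1609 and decreases from 1077 to 1424, and 990 increases and 866 decreases were called in all 9 such fits. Far more increases than decreases depended on the scale. Under all of 4 other scalings, 981 increases (59%) and 1375 decreases (91.1%) kept their call. With the replicate block 1377 genes rose and 1269 fell. Deviations of same-numbered libraries correlated at -0.0372, -0.0417 and -0.0941, and those of differently numbered libraries at -0.0295 to 0.0673. Whether same-numbered libraries share a mouse or culture is not labelled, and these correlations cannot decide it. Fabp4 went from 0.38 to -0.06 after quantile normalization. The cause of these shifts was not tested. With 3 libraries per dose an exact permutation test of 1 gene cannot go below p = 0.1, and under 5 FPKM 13.6% of genes were called against 53% at 100 FPKM or more.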

Other observations

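Several genes outside the lists, chosen after their values were seen, also differed between the doses. The ACTH receptor Mc2r went from 10.6 ± 0.775 to 17.3 ± 1.85 FPKM (SD, n = 3; log2 difference 0.65, limma adjusted p = 0.00406). Chchd10, a mitochondrial protein, went from 185 to 296 FPKM (log2 difference 0.67, adjusted p = 0.000194). Klb, the co-receptor of FGF21, went from 14.9 to 22.7 FPKM, and the hormone Fgf21 itself from 4.01 to 6.13. The call of Fgf21 was lost without library 3 at 50 µM, with a limma adjusted p of 0.0523. Among decreases, the platelet factor Pf4 went from 54.9 to 29.8 FPKM, the scavenger receptor Marco from 60.5 to 39.5, the vitamin D receptor Vdr from 8.55 to 4.7 and the growth factor Fgf7 from 24.9 to 14.6.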
